A study of Mus musculus with 13 samples.

Results

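The comparison described here sets the plasma microRNAs (miRNAs) of Givinostat-treated mdx mice against those of healthy naive wt mice, and so shows which differences from healthy plasma were present in dystrophic mice at the end of the drug treatment. The libraries were chosen by the group written in the sample titles: 3 Givinostat mice (numbers 31, 34 and 35) and 3 naive wt mice (86, 89 and 95), 6 of the 13 libraries of the series. The other 7 libraries, from 3 naive mdx and 4 vehicle mice, served to place the Givinostat mice among untreated dystrophic mice.

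Naive wt mice were C57BL/10J mice that received nothing. The mdx mice (C57BL10ScSn-Dmdmdx/J) carry a point mutation in the dystrophin gene and make no dystrophin, which models Duchenne muscular dystrophy in a milder form than in patients. Naive mdx mice received nothing. Vehicle mice received 0.5% methylcellulose by gavage, and Givinostat mice the same suspension with Givinostat at 37.5 mg/kg, 5 times a week for 15 weeks. All mice were males bought at 7 to 8 weeks of age, and all plasma is labelled T16. The strain field of every sample reads C57BL/10J, while the treatment note and the study's methods give C57BL10ScSn-Dmdmdx/J for the mdx mice. Givinostat mice therefore differed from naive wt mice in dystrophin, in the strain background named in the study's methods, in gavage and vehicle, and in the drug. The contributions of these to any value below cannot be told apart from this comparison alone.

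miRNAs are short RNAs that guide silencing proteins to messenger RNAs, mainly through the seed, bases 2 to 8 from the 5′ end. They are cut from hairpins, whose arms give a 5p and a 3p product, and some leave cells in vesicles or protein complexes or when membranes break. Muscle fibres contain a small set of miRNAs, the myomiRs (miR-1, miR-133, miR-206, miR-208b and miR-499), and fibres without dystrophin leak their contents, so myomiRs in blood are known as markers of muscle damage. Givinostat inhibits histone deacetylases, enzymes that remove acetyl groups from chromatin.

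Mature sequences of some of the miRNAs described are given below, since miRNAs with the same seed can act on the same targets and were read out here as separate products. They are RefSeq sequences on GRCm38.p6, written 5′ to 3′ with the seed in capitals. RefSeq held the mature sequence of 319 of the 368 miRNAs tested (86.7%). The first set shows the miRNAs that were far higher in Givinostat than in naive wt plasma.

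miR-206-3p: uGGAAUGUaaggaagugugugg
miR-133b-3p: uUUGGUCCccuucaaccagcua
miR-208b-3p: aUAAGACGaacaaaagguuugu
miR-22-3p: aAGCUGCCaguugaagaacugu
miR-378b: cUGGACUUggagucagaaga
miR-378c: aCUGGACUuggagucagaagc
miR-378d: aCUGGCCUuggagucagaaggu
miR-483-3p: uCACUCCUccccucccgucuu
miR-483-5p: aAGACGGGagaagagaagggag
miR-675-5p: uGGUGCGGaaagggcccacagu
miR-675-3p: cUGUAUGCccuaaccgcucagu
miR-34b-3p: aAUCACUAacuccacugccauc
miR-34c-3p: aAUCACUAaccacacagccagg

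miR-34b-3p and miR-34c-3p share the seed AUCACUA. The miR-206 and miR-133b hairpins lie on the plus strand at chr1:20679010-20679082 and chr1:20682769-20682887, in an intron and an exon of 1 long non-coding RNA. The miR-208b hairpin (chr14:54975700-54975776, minus strand) lies in an intron of Myh7, the gene of slow myosin. The miR-22 hairpin (chr11:75463716-75463810, plus strand) lies in an exon of its host transcript Mir22hg and of Tlcd2. The miR-378b, miR-378c and miR-378d hairpins lie at chr11:88352773-88352864 (plus strand), chr14:46954830-46954928 (minus) and chr10:126710282-126710391 (minus), the first opposite an intron of Msi2 and the second opposite an intron of Samd4. The miR-675 hairpin (chr7:142577064-142577147, minus strand) lies in an exon of H19, and the miR-483 hairpin (chr7:142654924-142654996, minus strand) in an intron of Igf2. The miR-34b and miR-34c hairpins (chr9:51103562-51103645 and chr9:51103034-51103110, minus strand) lie opposite an intron of Btg4. Positions of genes are from GENCODE M21, on the same build.

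The second set shows miRNAs that were lower in Givinostat than in naive wt plasma, with the 5 members of the epithelial miR-200 family. It also holds 3 miRNAs described below in the comparison with naive mdx mice, miR-92b-3p, miR-451a and miR-146b-5p. None of these 3 was called there in edgeR's fit of the 368 miRNAs.

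miR-200b-3p: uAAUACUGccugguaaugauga
miR-200c-3p: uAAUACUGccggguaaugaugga
miR-429-3p: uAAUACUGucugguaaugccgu
miR-200a-3p: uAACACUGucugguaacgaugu
miR-141-3p: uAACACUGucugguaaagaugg
miR-205-5p: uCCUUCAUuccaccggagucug
miR-148a-3p: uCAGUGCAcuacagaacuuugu
miR-192-5p: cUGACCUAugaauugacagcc
miR-92b-3p: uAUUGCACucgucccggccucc
miR-451a: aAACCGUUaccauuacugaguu
miR-146b-5p: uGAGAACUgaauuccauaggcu

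miR-200b-3p, miR-200c-3p and miR-429-3p share the seed AAUACUG, and miR-200a-3p and miR-141-3p the seed AACACUG. Their hairpins form 2 clusters, miR-429, miR-200a and miR-200b at chr4:156053905-156055750 and miR-141 and miR-200c at chr6:124717914-124718390, both on the minus strand. The miR-205 hairpin lies at chr1:193507463-193507530 (minus strand), that of miR-148a at chr6:51269812-51269910 (minus), that of miR-192 at chr19:6264844-6264932 (plus) and that of miR-92b at chr3:89227116-89227198 (minus).

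The 6 libraries held 1364813 to 2899315 counts, within the range of the whole series (1167161 to 2899315), and the 3 naive wt libraries, at 1446195 to 2899315, were each deeper than the Givinostat libraries, at 1364813 to 1437031. Of 1907 miRNAs in the count table, 1203 had a count in some library and 368 passed the count filter and were tested. A count of 0 allowed up to 3 counts, which is 1.41 to 1.90 CPM (counts scaled to a common library size) of a naive wt library and 1.79 to 2.48 CPM of a Givinostat library. Such limits cover counting error only, since reads from the amplified libraries are not independent molecules. Levels are given as CPM after edgeR's TMM scaling, and a fold change is the ratio of group levels in edgeR's fit of all 13 libraries. miRNAs were called at an adjusted p under 0.05 (edgeR's quasi-likelihood test, Benjamini-Hochberg over the 368). Nothing in the labels says how samples were spread over preparation batches, so p-values measure the spread between these mice.

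The plasma of Givinostat mice had a muscle-rich miRNA makeup, and that of naive wt mice a liver-rich one. The 17 miRNAs of the muscle list took 38.0%, 45.5% and 46.8% of the counts of Givinostat mice 31, 34 and 35. They took 1.32%, 2.09% and 0.707% in naive wt mice 86, 89 and 95. miR-122-5p, the main miRNA of liver cells, took 2.96%, 4.64% and 6.19% with Givinostat and 59.8%, 37.6% and 64.6% in naive wt mice. The groups were apart on both measures. The muscle share was 43.4% ± 4.75 (SD, n = 3) against 1.38% ± 0.695 (SD, n = 3), and the miR-122-5p share 4.60% ± 1.61 against 54.0% ± 14.4 (SD, n = 3 each). Both differences had p = 0.1 in a two-sided exact permutation test, the smallest p that 3 against 3 mice allow. With miR-122-5p taken out of the totals the muscle share still differed by 42.7 percentage points, and with the muscle list taken out the miR-122-5p share fell by 46.4 percentage points.

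**Figure D1:**
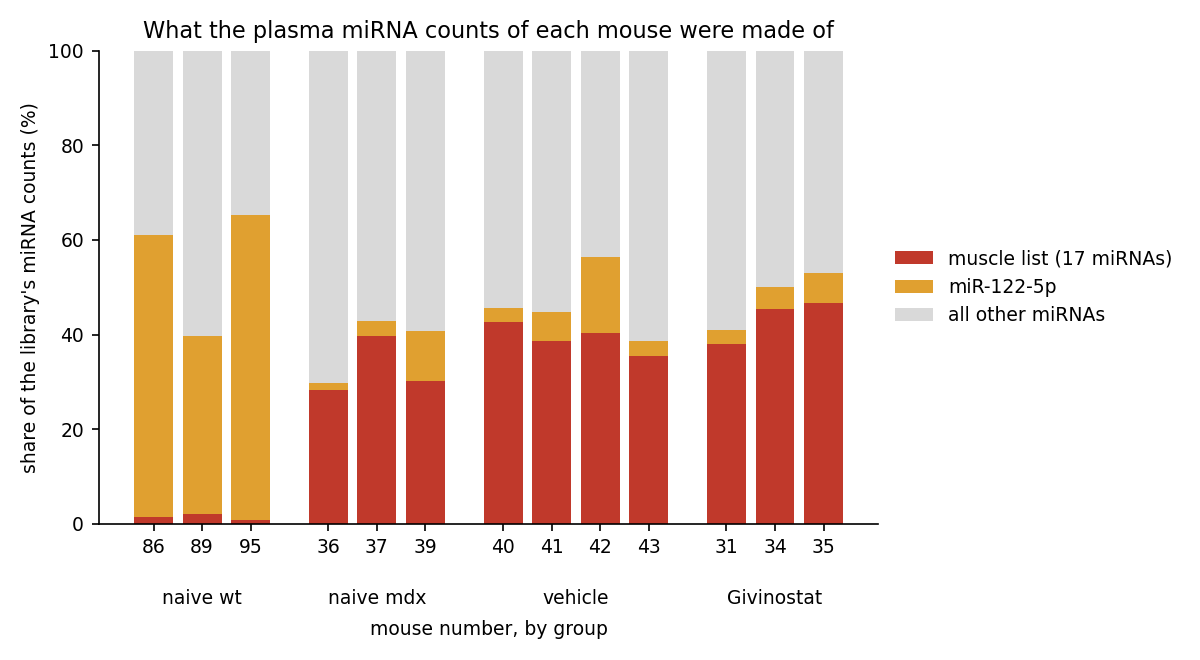
Share of each library's miRNA counts (y axis, %) taken by the muscle list (red), miR-122-5p (yellow) and all other miRNAs (grey), with 1 bar per mouse, grouped along the x axis. In the naive wt mice miR-122-5p took 37.6% to 64.6%, and in the Givinostat mice the muscle list took 38.0% to 46.8%.

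Of the 368 miRNAs, 83 were higher (22.6%) and 43 lower (11.7%) in Givinostat than in naive wt plasma. The higher ones moved further: 42 of them differed by more than 4-fold and 23 by more than 8-fold, against 2 of the lower ones by more than 4-fold, both products of the miR-122 hairpin. The median log2 fold change was 2.00 over the 83 higher miRNAs, also with the ones at 0 in naive wt set at the lower bounds given below, -1.17 over the 43 lower and -0.10 over all tested. Before adjustment, 97 higher and 69 lower had a p under 0.05. The count filter used all 13 libraries. In edgeR's fit of the 2 groups alone 332 miRNAs passed it, and 87 were higher and 55 lower. Those called there held 72 of the 83 and 43 of the 43, with median log2 fold changes of 2.06 and -1.04. The rest of the 83 were not tested in that fit. The CPM of the 3 Givinostat and the 3 naive wt mice did not overlap for 198 of the 368 (53.8%) and for 123 of the 126 called. The number of lower miRNAs depended on the scaling and on single mice: it was 18, beside 77 higher, when counts were scaled by library totals, 24 without naive wt mouse 89 and 25 without Givinostat mouse 35. With the log2 ratio of miR-451a over miR-23a-3p, described with the red blood cell list, as a covariate 22 miRNAs were higher and 0 lower. Of the main calls 83 of the 83 and 41 of the 43 kept their sign. Their median log2 fold changes shrank, from 2.00 to 1.47 for the higher and from -1.17 to -0.87 for the lower. Their median standard error rose from 0.365 to 0.554.

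**Figure D2:**
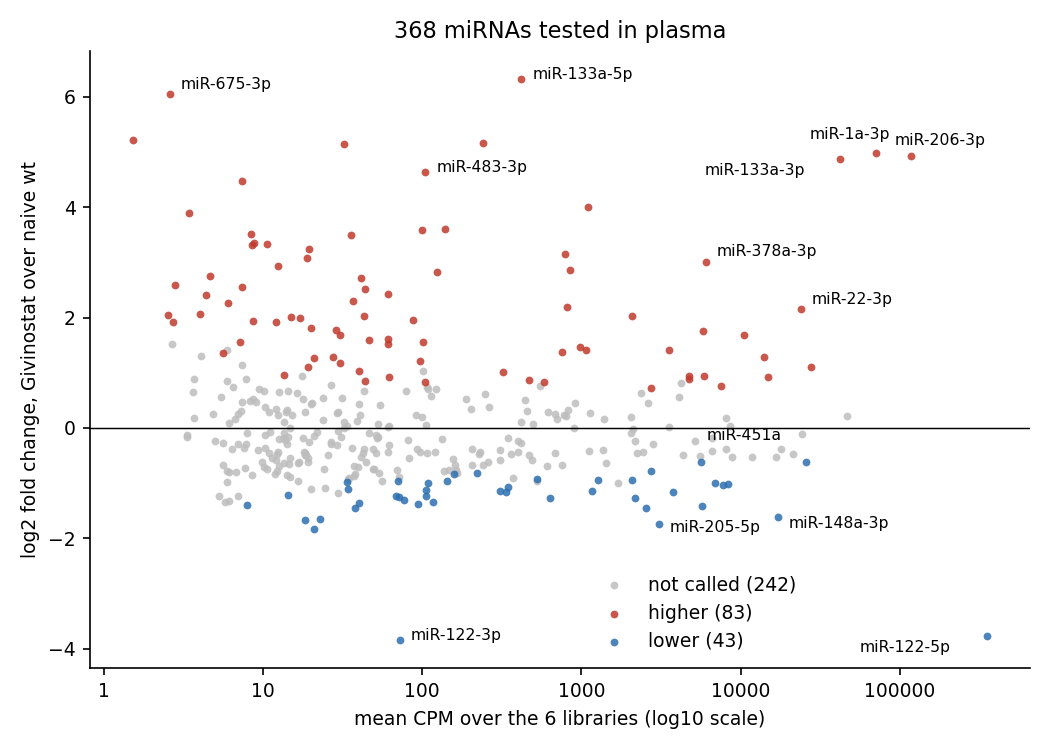
Mean CPM over the 6 libraries (x axis, log10 scale) against the log2 fold change of Givinostat over naive wt (y axis) for the 368 miRNAs tested, 1 point each, coloured by call. The 83 higher miRNAs reach 6.33 (miR-133a-5p), and among the 43 lower only the products of the miR-122 hairpin lie beyond -2.

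The muscle list was the group farthest above naive wt. Of its 17 members 8 passed the count filter, and 7 of these were higher, 0 lower, with a median log2 fold change of 4.95. The list passed the filter partly through the dystrophic groups, where its members are high. miR-206-3p, a miRNA of skeletal muscle that marks regenerating fibres, was at 9802, 7238 and 5487 CPM in naive wt mice 86, 89 and 95 and at 159968, 272209 and 250400.0 CPM in Givinostat mice 31, 34 and 35. The lowest Givinostat mouse was far above the highest naive wt mouse. The fold change was 30.3 (log2 4.92 ± 0.37 SE, edgeR adjusted p = 6.85e-08). miR-1a-3p, found in skeletal and heart muscle, was at 4779, 5955 and 2382 CPM against 102549, 147332 and 164137 CPM, 31.6-fold higher with Givinostat (log2 4.98 ± 0.56, edgeR adjusted p = 4.27e-06). Its groups also lay apart.

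The miR-133 products behaved likewise. miR-133a-3p, made with miR-1a from shared transcripts of skeletal and heart muscle, was at 2861, 3729 and 1701 CPM in naive wt and at 61562, 64569.9 and 118102 CPM in Givinostat mice, 29.5-fold higher (log2 4.88 ± 0.42, edgeR adjusted p = 2.15e-07). miR-133b-3p, made beside miR-206 from the same transcript, was at 17.7, 14.7 and 6.58 CPM against 322, 527 and 548 CPM, 36.1-fold higher (log2 5.17 ± 0.45, edgeR adjusted p = 2.15e-07). Again no naive wt mouse reached the lowest Givinostat mouse. The opposite arm miR-133a-5p had the largest log2 fold change of the 368 tested miRNAs, from 17.1, 7.33 and 6.58 CPM to 707, 811 and 956 CPM (80.4-fold, log2 6.33 ± 0.43, edgeR adjusted p = 2.74e-08).

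The scarce arm miR-1a-1-5p had 2.53, 2.82 and 0 CPM in naive wt and 52.5, 74.4 and 61.2 CPM in Givinostat mice (log2 5.15 ± 0.62, edgeR adjusted p = 9.05e-06). miR-208b-3p, carried in an intron of the slow myosin gene, was at 2.53, 1.13 and 0.47 CPM against 5.96, 7.04 and 9.10 CPM (log2 2.42 ± 0.60, edgeR adjusted p = 0.00508), on few counts. In both the groups were apart. miR-499-5p, the myomiR of Myh7b, was the one tested member not called: 76.6, 117 and 48.0 CPM in naive wt and 138, 114 and 153 CPM in Givinostat mice, with overlapping groups (log2 0.75, 95% confidence interval -0.15 to 1.64, edgeR adjusted p = 0.179). In fits of the 2 groups alone edgeR called it higher (log2 0.88, adjusted p = 0.0482) and DESeq2 did not (log2 0.78, adjusted p = 0.0653). Of the 9 members under the filter, miR-208a-3p of heart muscle had 0, 5 and 0 counts in naive wt and 7, 3 and 6 counts in Givinostat mice. The arm miR-206-5p had 0 counts in all 3 naive wt mice and 2, 0 and 3 counts with Givinostat, and miR-1a-2-5p had 1, 0 and 0 against 3, 2 and 2. The others, both arms of miR-1b and miR-133b-5p, miR-208a-5p, miR-208b-5p and miR-499-3p, had 0 or 1 count in each of the 6 libraries. Under the covariate 6 of the 8 tested members were called, all higher.

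The same members in the untreated dystrophic groups are given side by side, since all 3 dystrophic groups are set against the same naive wt mice. For miR-206-3p the log2 fold change over naive wt was 4.26 in naive mdx, 4.75 in vehicle and 4.92 in Givinostat mice. For miR-1a-3p it was 3.82, 4.34 and 4.98, and for miR-133a-3p 4.97, 5.21 and 4.88. Set directly against naive mdx mice, none of the tested muscle members differed at an adjusted p under 0.05 in edgeR's fit of the 368 miRNAs, while with no count filter miR-1a-3p was called higher. The log2 difference of Givinostat from naive mdx was 0.66 for miR-206-3p (95% confidence interval -0.01 to 1.33), 1.16 for miR-1a-3p (0.15 to 2.17) and -0.09 for miR-133a-3p (-0.84 to 0.66). These intervals allow miR-206-3p and miR-1a-3p to be up to more than 2-fold higher with Givinostat than without it.

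**Figure D3:**
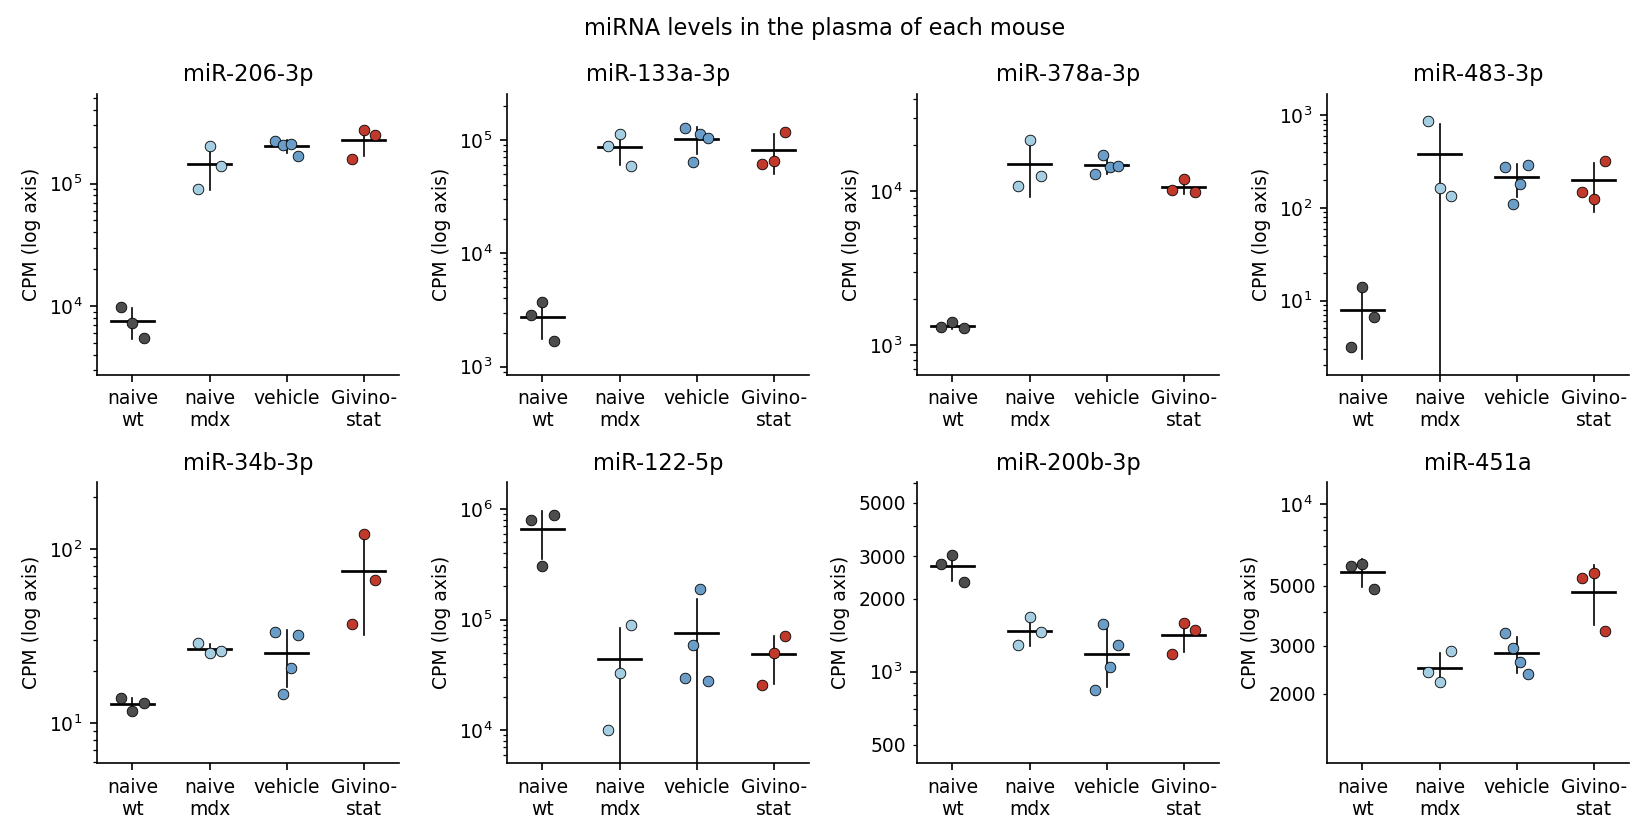
CPM of 8 miRNAs (y axes, log scale, different in each panel) in the 4 groups, 1 point per mouse, with the mean as a horizontal line and the SD as a vertical line, which runs to the axis where mean minus SD is below the range shown. miR-206-3p, miR-133a-3p, miR-378a-3p, miR-483-3p and miR-34b-3p are higher in every Givinostat mouse than in every naive wt mouse, miR-122-5p and miR-200b-3p are lower, and miR-451a overlaps naive wt.

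The miR-378 family followed the muscle list. miR-378a is made from an intron of Ppargc1b and takes part in the control of mitochondrial metabolism. All 5 members were tested and all 5 were higher, with a median log2 fold change of 3.50. miR-378a-3p was at 1305, 1406 and 1284 CPM in naive wt and at 10147, 12066 and 9984 CPM in Givinostat mice, a narrow spread in both groups with no overlap. It was 8.06-fold higher (log2 3.01 ± 0.27, edgeR adjusted p = 3.41e-07), and its opposite arm miR-378a-5p, at 142, 116 and 128 CPM against 1531, 2070.3 and 2619 CPM, 16.1-fold higher (log2 4.01 ± 0.32, edgeR adjusted p = 1.22e-07). miR-378b, miR-378c and miR-378d, whose sequences above are nearly the same, were higher by 3.60, 3.25 and 3.50 on the log2 scale (SE 0.38 to 0.43) with no overlap. Reads of such close copies may have been split or shared between them in the counting, so these 3 are not independent readings. All 5 members were also called under the covariate.

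In miR-378b the level of the Givinostat group lay between those of naive wt and naive mdx, but single Givinostat and naive mdx mice overlapped. Its log2 fold change over naive wt was 4.44 in naive mdx, 3.92 in vehicle and 3.60 in Givinostat mice, and the direct difference of Givinostat from naive mdx was -0.84 (95% confidence interval -1.56 to -0.12, unadjusted p = 0.0244 and adjusted p = 0.31 in edgeR's test). For miR-378a-5p that difference was 0.33 (-0.27 to 0.94).

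miR-22, abundant in heart and skeletal muscle and made from its own host transcript, was higher on both arms. miR-22-3p was at 9399, 8258 and 8779 CPM in naive wt and at 35540.1, 35868 and 45924 CPM in Givinostat mice, apart in every mouse (4.44-fold, log2 2.15 ± 0.26, edgeR adjusted p = 9.1e-06). miR-22-5p was at 252, 188 and 175 CPM against 1150.2, 1738 and 1575 CPM (7.25-fold, log2 2.86 ± 0.30, edgeR adjusted p = 2.43e-06). In both arms the naive wt mice lay within a narrow range. Directly against naive mdx, miR-22-3p differed by -0.55 on the log2 scale (95% confidence interval -1.08 to -0.01), which did not pass the adjusted threshold.

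Products of the imprinted H19 and Igf2 locus, a growth-control region active in fetal tissue and regenerating muscle, were scarce in naive wt plasma. All 4 tested products were higher with Givinostat, with a median log2 fold change of 4.56, or 4.04 with miR-675-3p at its lower bound. miR-675-3p, with no count in naive wt, passed the filter only through the dystrophic groups, and in edgeR's fit of the 2 groups alone 3 products were tested, all higher. miR-483-3p, from an intron of Igf2, was at 3.17, 14.1 and 6.58 CPM in naive wt and at 149, 126 and 326 CPM in Givinostat mice (24.8-fold, log2 4.63 ± 0.74, edgeR adjusted p = 0.000183), and miR-483-5p at 11.4, 18.6 and 15.1 CPM against 122, 153 and 275 CPM (12.1-fold, log2 3.60 ± 0.44, edgeR adjusted p = 9.1e-06). Neither product overlapped between the groups. Under the covariate 3 of the 4 products were called, all but miR-483-3p (edgeR adjusted p = 0.1). miR-675-5p, cut from an exon of H19, had 1, 2 and 0 counts in naive wt and 22, 14 and 22 counts in Givinostat mice, a ratio of scaled counts of 25.5 with an exact counting interval of 8.29 to 127 (edgeR adjusted p = 0.000209). miR-675-3p had 0 counts in all 3 naive wt mice and 10, 7 and 5 counts with Givinostat, at least 9.49-fold higher when the naive wt group is set at 3 counts in all. The other miRNA at 0 in every naive wt mouse, miR-1199-5p, had 3, 2 and 7 counts with Givinostat, at least 5.57-fold higher by the same measure, and was singled out after its values were seen.

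The higher members of the H19 and Igf2 group differed in how the dystrophic groups ranked. The log2 fold change over naive wt of miR-483-3p was 5.59 in naive mdx, 4.75 in vehicle and 4.63 in Givinostat mice, and that of miR-675-5p was 2.73, 4.26 and 4.48. The direct difference of Givinostat from naive mdx was 1.75 for miR-675-5p (95% confidence interval 0.55 to 2.96, unadjusted p = 0.00679 and adjusted p = 0.227 in edgeR's test) and -0.96 for miR-483-3p (-2.25 to 0.34).

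The miR-34 and miR-449 family, regulated by p53 and by cilia-forming programmes, was the list with the largest median difference of Givinostat from naive mdx mice (log2 1.59), although no member passed the adjusted threshold there in edgeR's fit of the 368 miRNAs. With no count filter miR-449a-5p, miR-34c-5p, miR-34b-3p and miR-34c-3p were called higher than naive mdx. miR-449a-5p was also called by DESeq2 on the 2 groups alone, and miR-449a-5p and miR-34b-3p by edgeR without Givinostat mouse 31. Of its 11 members 3 were tested and 3 were higher than naive wt, with a median log2 fold change of 2.71. miR-34b-3p was at 13.9, 11.8 and 13.2 CPM in naive wt and at 37.0, 121 and 66.2 CPM in Givinostat mice (5.72-fold, log2 2.52 ± 0.42, edgeR adjusted p = 0.000209). miR-34c-5p was at 10.1, 9.02 and 13.2 CPM against 30.4, 140.1 and 44.7 CPM (6.56-fold, log2 2.71 ± 0.54, edgeR adjusted p = 0.00107), and miR-34c-3p at 6.33, 1.69 and 3.76 CPM against 10.7, 70.5 and 19.9 CPM (8.47-fold, log2 3.08 ± 0.60, edgeR adjusted p = 0.00106). The groups were apart in all 3, and Givinostat mouse 34 was the highest each time. Without that mouse the log2 fold changes of miR-34c-5p and miR-34c-3p were 1.80 and 1.97, and both were still called. Under the covariate 0 of the 3 were called, at a median log2 fold change of 2.385. The direct difference of Givinostat from naive mdx was 1.47 for miR-34b-3p (95% confidence interval 0.64 to 2.31), 1.75 for miR-34c-5p (0.67 to 2.82) and 1.59 for miR-34c-3p (0.44 to 2.75), with adjusted p values of 0.162, 0.176 and 0.27 in edgeR's test. Under the filter, miR-449a-5p, singled out after its values were seen, had 0, 0 and 1 count in naive wt and 2, 44 and 10 counts in Givinostat mice, a ratio of scaled counts of 73.7 with an exact counting interval of 12.7 to 2960, most of it from mouse 34. miR-34a-5p, the member made in most tissues, had 8, 5 and 9 counts against 7, 6 and 4 counts and was not tested.

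Of the 4 tested miR-29 products, which target collagen messenger RNAs, 3 were higher: miR-29a-3p went from 3446, 3614 and 2663 CPM to 6119.6, 6375 and 6269.9 CPM (1.93-fold, edgeR adjusted p = 0.00779), miR-29c-3p differed by 1.21 ± 0.29 and miR-29c-5p by 1.99 ± 0.34 on the log2 scale. The 3 Givinostat mice lay within a narrow range above naive wt for miR-29a-3p. miR-29b-3p, with a log2 fold change of 0.67 (95% confidence interval -0.08 to 1.43), was not called. Among 10 tested miR-30 products 6 were higher and 0 lower, with a median of 0.99. miR-30a-5p was at 5929.5, 4666 and 4415 CPM against 13289, 19349 and 15788 CPM (3.23-fold, edgeR adjusted p = 0.000192), miR-30c-5p was 2.44-fold and miR-30d-5p 2.15-fold higher, all without overlap. miR-30e-5p, 1.55-fold, was not called (edgeR adjusted p = 0.0568). Fits of the 2 groups alone called it higher, by edgeR (adjusted p = 0.00946) and by DESeq2 (adjusted p = 0.00725).

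The miR-23, miR-24 and miR-27 family, made from 2 clusters and known from vessels and muscle, had 6 of 11 tested members higher and 0 lower, with a median of 0.93. miR-24-3p was at 11183, 10151 and 9269 CPM in naive wt and 18943, 20113 and 19226 CPM in Givinostat mice, with no overlap (1.90-fold, edgeR adjusted p = 0.00569). miR-23a-3p, 1.70-fold higher (edgeR adjusted p = 0.0157), and miR-27b-3p, 1.92-fold higher (edgeR adjusted p = 0.0324), lost their calls when single mice were left out: miR-23a-3p without naive wt mouse 95 or Givinostat mouse 35, and miR-27b-3p without any 1 of the 6 mice. miR-128-3p, best known from neurons and also made in muscle, was at 3606, 2272 and 2048 CPM against 7142, 7419 and 12399 CPM (3.40-fold, edgeR adjusted p = 0.00104) and was the one higher member, beside 1 lower, among 8 tested of the neuron and glia list, whose median log2 fold change was -0.56. miR-100-5p was the one called of 13 tested in the miR-10, miR-99/100 and miR-125 group (1.84-fold higher, edgeR adjusted p = 0.0166), a call lost without naive wt mouse 86, naive wt mouse 95 or Givinostat mouse 35. Under the covariate none of the miR-29 and miR-23, miR-24 and miR-27 members and 1 of the miR-30 members was called. miR-128-3p and miR-100-5p also lost their calls under it.

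**Figure D4:**
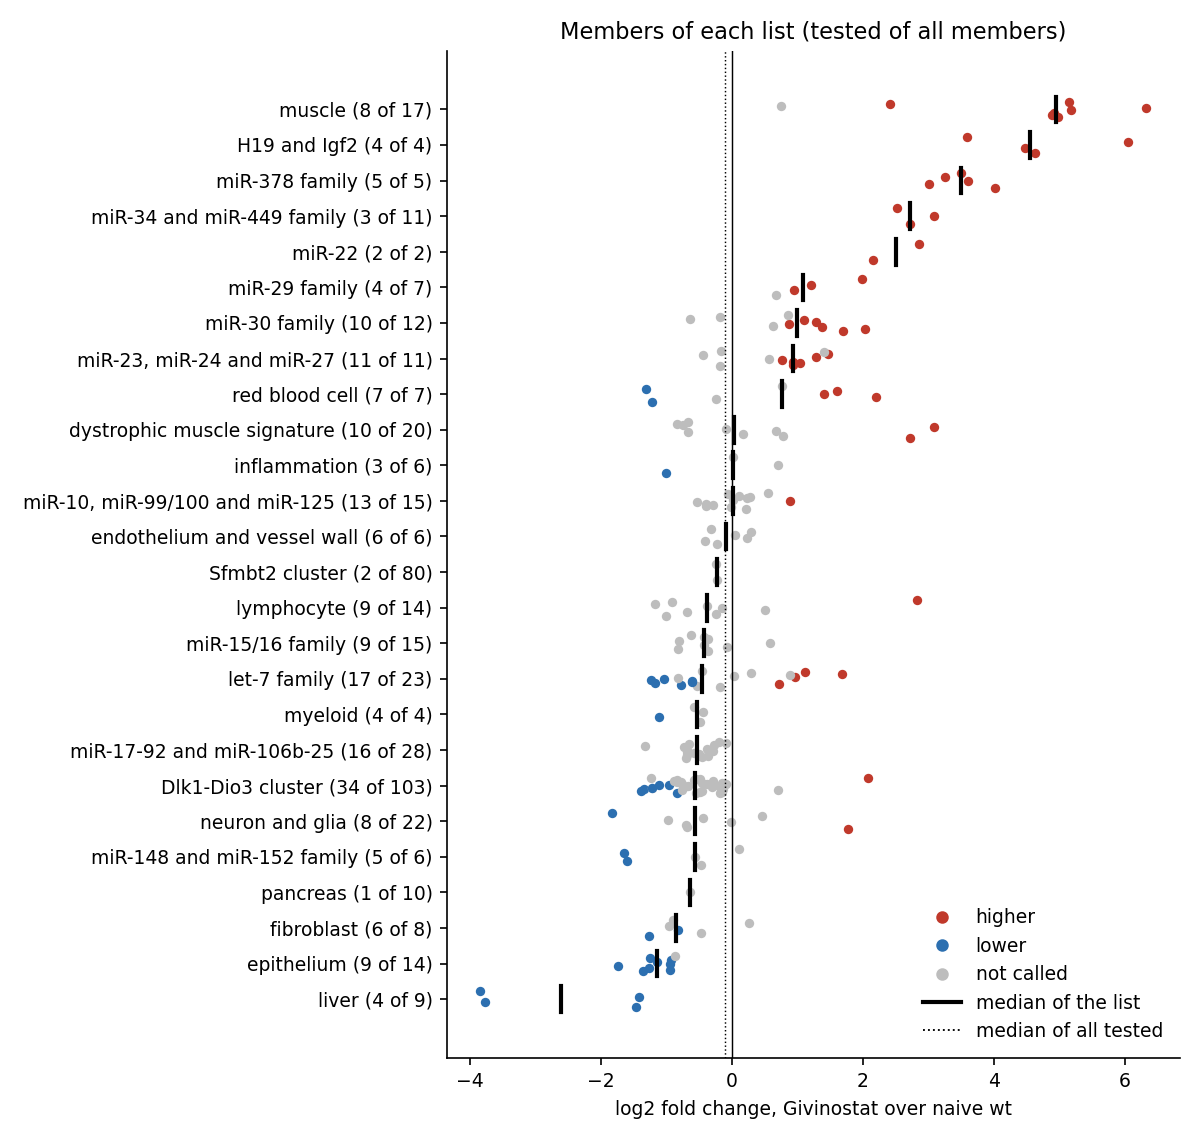
Log2 fold change of Givinostat over naive wt (x axis) for the tested members of each of 26 lists (y axis, tested of all members), 1 point per miRNA coloured by call, with the median of each list as a bar and that of all 368 miRNAs (-0.10) as a dotted line. The muscle, H19 and Igf2, and miR-378 lists lie highest and the liver and epithelium lists lowest.

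The liver list was the group farthest below naive wt. Of its 9 members 4 were tested and 4 were lower, with a median log2 fold change of -2.61. miR-122-5p was at 792653, 306216 and 880637 CPM in naive wt and at 25404, 49613 and 70789.9 CPM in Givinostat mice. The groups were far apart, although naive wt mouse 89 had less than the other naive wt mice. The level was 13.6-fold lower with Givinostat (log2 -3.76 ± 0.81, edgeR adjusted p = 0.00216). Its opposite arm miR-122-3p, at 81.7, 68.8 and 254 CPM against 10.1, 3.13 and 14.9 CPM, was 14.3-fold lower (log2 -3.84 ± 0.79, edgeR adjusted p = 0.00151). miR-192-5p and miR-194-5p, made together in liver, gut and kidney, were lower to a smaller degree: miR-192-5p went from 10272, 6448 and 8152 CPM to 2384, 3042 and 3856 CPM (2.68-fold, edgeR adjusted p = 0.0031) and miR-194-5p from 3926, 3799.6 and 3482 CPM to 992, 1239.9 and 1845 CPM (2.75-fold, edgeR adjusted p = 0.00352). No mouse of either group reached the other. Of the 5 members under the filter, the liver miRNA miR-802-5p had 8, 9 and 17 counts in naive wt and 1, 1 and 3 counts in Givinostat mice, and its arm miR-802-3p had 1, 0 and 4 against 1, 0 and 0. miR-194-1-3p had 11, 30 and 20 counts against 6, 3 and 6, miR-194-2-3p 6, 4 and 11 against 0, 1 and 0, and miR-192-3p 0, 0 and 1 against 2, 1 and 0.

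These levels are relative. miR-122-5p alone took at least 37.6% of the counts of each naive wt library, and a lower share of it and a higher share of muscle miRNAs are not independent in counts that are read as parts of a whole. With miR-122-5p removed from the counts before scaling 79 miRNAs were higher and 48 lower. In plasma, fewer cells releasing a miRNA and less of it released per cell cannot be told apart. Against naive mdx, which had log2 fold changes over naive wt of -3.91 for miR-122-5p and -1.13 for miR-192-5p, Givinostat differed by 0.15 (95% confidence interval -1.40 to 1.69) and -0.29 (-0.96 to 0.38).

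miR-148a, abundant in liver and other epithelial organs, was lower on both arms and was called on both: miR-148a-3p at 30561, 19934 and 26821 CPM in naive wt and 8273, 9495 and 7598 CPM in Givinostat mice (3.05-fold lower, edgeR adjusted p = 0.00311), and miR-148a-5p 3.13-fold lower (edgeR adjusted p = 0.00417). The groups did not overlap on either arm. miR-148b-3p and miR-152-3p, which share the seed CAGUGCA with miR-148a-3p, had log2 fold changes of -0.57 and -0.47 and were not called. In fits of the 2 groups alone DESeq2 called miR-148b-3p lower (adjusted p = 0.0426) and edgeR did not (adjusted p = 0.111).

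The epithelium list had 9 tested members of 14, of which 8 were lower and 0 higher, with a median of -1.14. The 5 printed members of the miR-200 family, which keep epithelial cells from turning mesenchymal, were all called. miR-200b-3p was at 2784, 3043 and 2345 CPM in naive wt and at 1182, 1587 and 1492 CPM in Givinostat mice (1.92-fold lower, edgeR adjusted p = 0.00874). miR-200c-3p, with the same seed and another cluster, was at 1714, 1724 and 1346 CPM against 595, 810.1 and 765 CPM (2.21-fold lower, edgeR adjusted p = 0.00143). The groups were apart for both. miR-429-3p, miR-200a-3p and miR-141-3p were lower by 0.92, 0.94 and 1.35 on the log2 scale, all without overlap. miR-205-5p, a miRNA of skin and other stratified epithelia, was at 5341, 5313 and 3518 CPM against 1606, 1326 and 1309 CPM (3.34-fold lower, edgeR adjusted p = 0.000107), and miR-203-3p, also of skin, was 2.41-fold lower (edgeR adjusted p = 0.0142). Of the 9 tested, 5 were called with library-total scaling, 6 with no filter, 2 in limma with either pseudocount, 5 without naive wt mouse 89, 6 without Givinostat mouse 31 and 5 without Givinostat mouse 35. In limma none of the 5 miR-200 family members was called. Single calls were lost for miR-429-3p without naive wt mouse 89 or Givinostat mouse 31, for miR-200a-3p without either of these or Givinostat mouse 35, for miR-141-3p without naive wt mouse 89 or Givinostat mouse 35, and for miR-203-3p without Givinostat mouse 35. With the covariate 0 of the epithelium list and 0 of the liver list were called, at medians of -1.09 and -2.65. miR-205-5p differed by -0.09 from naive mdx (95% confidence interval -0.63 to 0.46) and miR-200b-3p by -0.06 (-0.58 to 0.47).

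Further lower miRNAs had smaller levels. miR-211-5p, made in pigment cells from an intron of Trpm1, was at 36.1, 33.8 and 14.1 CPM in naive wt and 10.7, 7.83 and 7.45 CPM in Givinostat mice (3.16-fold lower, edgeR adjusted p = 0.0135). miR-455-3p, known from cartilage, was at 40.5, 45.1 and 79.5 CPM against 14.3, 22.7 and 24.0 CPM (2.73-fold lower, edgeR adjusted p = 0.0111), a call lost without naive wt mouse 95 or Givinostat mouse 31. Neither overlapped between the groups, which the rule for naming them required. miR-215-3p, a relative of miR-192, was 2.61-fold lower (edgeR adjusted p = 0.00552).

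The let-7 family, which restrains proliferation and is made in nearly every adult tissue, split by arm. Of 17 tested members 6 were lower and 4 higher, with a median of -0.45. The 9 tested guides with the seed GAGGUAG included all 6 lower ones and none of the higher ones. let-7c-5p was at 30546, 31976 and 31523 CPM in naive wt and at 20283, 22607 and 18416 CPM in Givinostat mice, apart in every mouse but by a modest factor (1.53-fold lower, edgeR adjusted p = 0.0368). let-7f-5p, at 8117, 12622 and 10734 CPM against 6927, 4229.9 and 4242 CPM, was 2.04-fold lower (edgeR adjusted p = 0.0373), and let-7g-5p had a log2 fold change of -0.17 (95% confidence interval -0.74 to 0.39) and was not called. The let-7 calls were among the weakest: 1 lower and 2 higher were left with library-total scaling, 1 and 2 without naive wt mouse 89, 2 and 1 without Givinostat mouse 35, and 0 and 0 with the covariate. For let-7c-5p 5 of the 6 fits that each left out 1 mouse lost the call, the exception being the fit without naive wt mouse 86, and let-7f-5p was called in 2 of the 6, without naive wt mouse 86 or Givinostat mouse 31.

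Among the 95 hairpins with both arms tested, both were higher in 13, both lower in 6, 1 arm was called in 19 and none in 56. let-7d was the only hairpin called in opposite directions: let-7d-5p was at 3447, 3855 and 2992 CPM in naive wt and 2383, 1952 and 1689 CPM in Givinostat mice (1.71-fold lower, edgeR adjusted p = 0.022), and let-7d-3p at 2636, 1748 and 1847 CPM against 3479, 3315 and 3493 CPM (1.65-fold higher, edgeR adjusted p = 0.0424). The groups were apart on both arms. The call of let-7d-5p was lost without naive wt mouse 89, Givinostat mouse 34 or Givinostat mouse 35, and that of let-7d-3p in 5 of the 6 fits, all but the one without naive wt mouse 86. Of 33 seeds shared by 2 or more tested miRNAs, 10 had 2 or more called, and none was called in both directions. Of 35 groups of neighbouring hairpins on 1 strand (at most 10 kb apart), 3 held calls in both directions, among them both clusters with let-7f, whose 5p product cannot be assigned to 1 of its hairpins.

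The red blood cell list, which follows the breakage of red cells during blood collection, was divided: of 7 tested members 3 were higher (miR-486a-5p, miR-486b-5p and miR-486b-3p) and 2 lower (miR-144-3p and miR-144-5p), with a median of 0.77. miR-486a-5p, also made in muscle from an intron of Ank1, was at 340.5, 272 and 259 CPM in naive wt and 1009.5, 1089.6 and 1906 CPM in Givinostat mice (4.60-fold higher, edgeR adjusted p = 0.00244). miR-144-3p was at 161, 165 and 117 CPM against 83.5, 72.8 and 32.3 CPM (2.34-fold lower, edgeR adjusted p = 0.0212). Neither overlapped between the groups. miR-486a and miR-486b have nearly the same sequence, so their reads may have been split. Calls were lost for miR-486b-5p without naive wt mouse 95 or Givinostat mouse 35, for miR-144-3p without naive wt mouse 89 or Givinostat mouse 35, and for miR-144-5p without any 1 mouse other than Givinostat mouse 31. miR-144 and miR-451a are made from 1 transcript of red cell precursors, and miR-451a was at 5931, 6034 and 4854 CPM in naive wt and 5322, 5548 and 3391 CPM in Givinostat mice, overlapping (log2 -0.24, 95% confidence interval -0.74 to 0.27, edgeR adjusted p = 0.441).

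miR-451a counts over miR-23a-3p counts are a common measure of haemolysis, and the log2 of this ratio was 0.0217, -0.109 and 0.106 in naive wt and -0.691, -0.873 and -1.53 in Givinostat mice, a difference of -1.04 (exact permutation p = 0.1, the smallest possible). miR-23a-3p itself was higher with Givinostat, so both terms enter this value. With miR-144-3p in place of miR-451a the difference was -2.09, and with miR-486a-5p it was 1.37, of opposite sign. The ratio was -1.80 to -2.68 in naive mdx and -1.67 to -2.13 in vehicle mice. With the ratio as a covariate the log2 fold changes of miR-144-3p and miR-144-5p were 0.09 and 0.31, of opposite sign and not called. The part of red blood cell material in the other differences was not tested beyond the covariate given above.

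In the list of myeloid cells 1 of 4 tested members was lower, miR-142a-3p, at 128, 166 and 142 CPM in naive wt and 84.7, 60.3 and 55.4 CPM in Givinostat mice (2.17-fold, edgeR adjusted p = 0.0216). The groups were apart, and the call was lost without naive wt mouse 89, Givinostat mouse 34 or Givinostat mouse 35. In the lymphocyte list 1 of 9 was called, the arm miR-181a-2-3p, which was higher (log2 2.82), while miR-150-5p of mature lymphocytes was not called, at 1823.5, 2398 and 2589 CPM against 1697, 841 and 866 CPM (95% confidence interval of the log2 fold change -2.03 to 0.03, edgeR adjusted p = 0.125). In fits of the 2 groups alone miR-150-5p was called lower, by edgeR (log2 -0.89, adjusted p = 0.0392) and by DESeq2 (log2 -1.02, adjusted p = 0.00902). miR-181a-5p had a log2 fold change of -0.24. miR-146a-5p, which damps inflammatory signalling, was at 8380.2, 7964 and 11384 CPM against 4548, 4530.5 and 4785 CPM (2.00-fold lower, edgeR adjusted p = 0.00253), and was the one called of 3 tested in the inflammation list.

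Fibroblast markers were lower or not called: of 6 tested 2 were lower and 0 higher, with a median of -0.86. miR-199a-5p was at 648, 865 and 1174 CPM in naive wt and 396, 367 and 348 CPM in Givinostat mice (2.42-fold lower, edgeR adjusted p = 0.00377). miR-214-3p, from the same cluster, was 1.77-fold lower (edgeR adjusted p = 0.025), a call that was lost without naive wt mouse 86, where the log2 fold change was -0.54, and without Givinostat mouse 34 or 35. miR-21a-5p, known to rise in fibrotic tissue, had a log2 fold change of -0.47 (95% confidence interval -1.10 to 0.16, edgeR adjusted p = 0.227). Of the endothelium and vessel wall list 0 of 6 were called by edgeR or by DESeq2 and 0 had an unadjusted edgeR p under 0.05, with a median of -0.10, and miR-126a-3p of endothelium had a log2 fold change of -0.41 (95% confidence interval -1.17 to 0.35).

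In a list of 20 miRNAs drawn from a published signature of dystrophic and regenerating muscle 2 of 10 tested members were higher, miR-34c-3p and miR-34c-5p, and 0 lower, with a median of 0.04. Over all 368 tested 22.6% were higher, and both members are the miR-34c products given above. This list did not hold miR-206-3p (log2 4.92), which the study ties to regeneration of dystrophic muscle and which is in the muscle list. Its median therefore leaves that miRNA out. In the imprinted Dlk1-Dio3 cluster 6 of 34 tested were lower and 1 higher, with a median of -0.56, beside 11.7% lower over all tested. The 6 were 1 with library totals, 1 with no filter, 0 in limma with either pseudocount, 0 with the covariate and 2 to 4 when 1 mouse was left out. miR-409-3p (2.54-fold lower, edgeR adjusted p = 0.00933) and miR-341-3p (2.63-fold lower, edgeR adjusted p = 0.0192) belong to it. miR-409-3p lost its call without naive wt mouse 86, where its log2 fold change was -0.79, and miR-341-3p without that mouse or Givinostat mouse 34 or 35. The miR-15/16 list and the miR-17-92 and miR-106b-25 list had 0 of 9 and 0 of 16 called in edgeR's test on all 13 libraries, with medians of -0.43 and -0.54. Before adjustment 1 higher and 1 lower of the first list and 0 higher and 4 lower of the second had a p under 0.05, and DESeq2 on all libraries called 1 (higher) and 0. In fits of the 2 groups alone edgeR called 1 of 8 higher in the first and 1 of 15 lower in the second, and DESeq2 1 of 9 higher and 3 of 16 lower. Of the Sfmbt2 cluster 2 of 80 members and of the pancreas list 1 of 10 were tested, with 0 called by edgeR or DESeq2 and 0 at an unadjusted edgeR p under 0.05.

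The question of what the drug-treated mice share with untreated dystrophic mice was put directly, by testing Givinostat against naive mdx and against vehicle in the same fit. Against naive mdx 0 of 368 miRNAs were called (0%), with a smallest adjusted p of 0.162 in edgeR's test, 20 higher and 28 lower with p under 0.05 before adjustment, and 2 called by DESeq2 on all libraries, miR-451a and miR-92b-3p. DESeq2 on the 2 groups alone also called 2, miR-449a-5p and miR-92b-3p, and edgeR with no filter 11. The median 95% confidence interval, not adjusted for the number of tests, reached 0.762 to either side on the log2 scale. Differences under about that size were not detectable in most miRNAs. Larger ones could also miss the adjusted threshold, as several given below did. Over the 83 miRNAs higher than naive wt the median log2 difference of Givinostat from naive mdx was -0.24, with 21 at an unadjusted edgeR p under 0.05. Over the 43 lower miRNAs the median was 0.03, with 4, beside the 20 higher and 28 lower over all 368. Both sets were picked with the same Givinostat mice. These values are therefore a description and do not test what the groups share. Against vehicle 1 of 368 was called (0.272%), with 15 higher and 10 lower before adjustment. Other fits also called members of the miR-34 and miR-449 family higher than vehicle. They were miR-34c-5p with upper-quartile factors, library totals and DESeq2 in either form, and miR-34b-3p with upper-quartile factors. With no filter and without Givinostat mouse 31, both of these, miR-34c-3p and miR-449a-5p were called. None was called without Givinostat mouse 34 or 35 or without any 1 vehicle mouse.

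**Figure D5:**
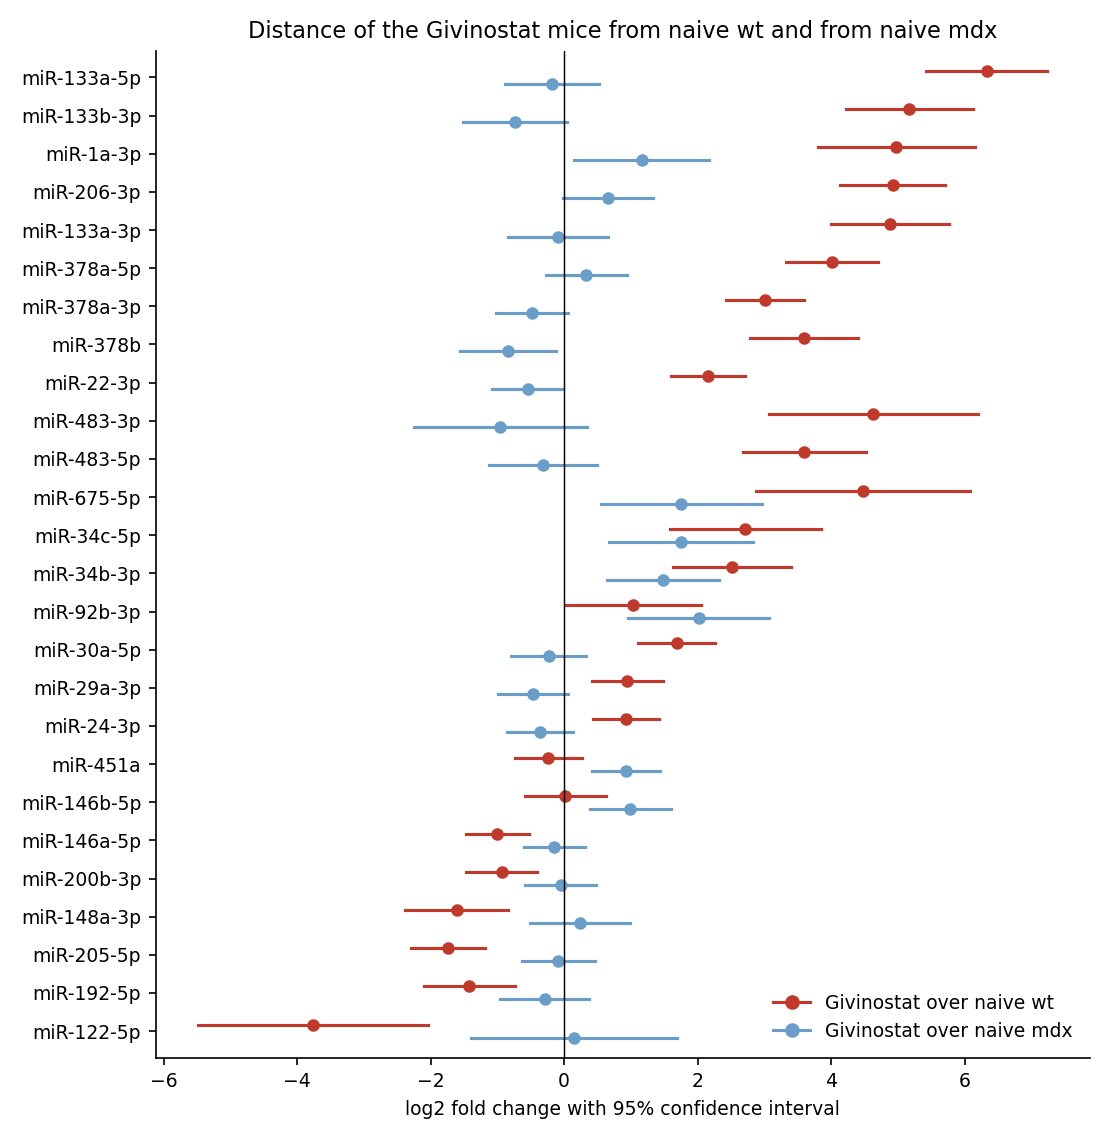
Log2 fold change with its 95% confidence interval (x axis) for 26 miRNAs (y axis), of Givinostat over naive wt (red) and of Givinostat over naive mdx (blue). For the muscle, miR-378 and miR-22 miRNAs the red points lie between 2.15 and 6.33 and the blue points between -0.84 and 1.16, and for miR-451a and miR-146b-5p the red points lie at -0.24 and 0.02 and the blue points at 0.93 and 0.99.

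In a few miRNAs the level of the Givinostat group was closer to naive wt than to naive mdx, between these groups or beyond both. miR-92b-3p was the one called against vehicle in edgeR's fit of the 368 miRNAs. It was at 47.5, 106 and 46.5 CPM in naive wt and 57.8, 238 and 115 CPM in Givinostat mice, with overlap. Against naive wt it was not called (log2 1.03, 95% confidence interval 0.02 to 2.05, edgeR adjusted p = 0.105). Its log2 fold change over naive wt was -0.98 in naive mdx and -1.31 in vehicle mice, and Givinostat differed from naive mdx by 2.02 (95% confidence interval 0.96 to 3.07, edgeR adjusted p = 0.162) and from vehicle, at 22.4 to 29.3 CPM, by 2.35 (1.37 to 3.32, edgeR adjusted p = 0.0374). The call against vehicle was lost without Givinostat mouse 34 or 35 and without any 1 of the 4 vehicle mice. Its opposite arm miR-92b-5p was at 1.27, 1.13 and 0.94 CPM in naive wt and 1.19, 13.3 and 9.93 CPM in Givinostat mice, and was called (edgeR adjusted p = 0.0254) although mouse 31 lay within the naive wt range, a call lost without any 1 mouse other than mouse 31.

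miR-451a had a log2 fold change over naive wt of -1.17 in naive mdx, -0.99 in vehicle and -0.24 in Givinostat mice, and Givinostat differed from naive mdx by 0.93 (95% confidence interval 0.42 to 1.44, edgeR adjusted p = 0.162). miR-146b-5p, a close relative of miR-146a-5p with the same seed, was at 2874, 2702 and 4982 CPM in naive wt and 4448, 3428 and 2817 CPM in Givinostat mice, overlapping (log2 0.02 ± 0.29), with log2 fold changes of -0.97 in naive mdx and -0.78 in vehicle mice and a direct difference from naive mdx of 0.99 (95% confidence interval 0.38 to 1.60, edgeR adjusted p = 0.176). miR-341-3p went the other way: it was lower than naive wt with Givinostat (log2 -1.40) and near it in naive mdx (0.25) and vehicle mice (-0.11), and differed from naive mdx by -1.64 (95% confidence interval -2.54 to -0.74, edgeR adjusted p = 0.162), at levels of 3.91 to 13.9 CPM in the 6 mice. miR-7068-3p was at 4.70 to 4.96 CPM with Givinostat and 0.47 to 1.27 CPM in naive wt, and its log2 fold change over naive wt was 2.58 with Givinostat, 4.07 in naive mdx and 3.94 in vehicle mice, a direct difference of -1.49 from naive mdx (95% confidence interval -2.39 to -0.59). None of these 4 differences from naive mdx passed the adjusted threshold in edgeR's fit of the 368 miRNAs, while that of miR-451a was called by DESeq2 on all libraries and that of miR-146b-5p by edgeR with no filter.

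The most abundant miRNAs of the groups differed. The 5 miRNAs with the highest mean CPM were miR-122-5p, miR-99a-5p, let-7c-5p, miR-148a-3p and miR-26a-5p in naive wt mice. In Givinostat mice they were miR-206-3p followed by miR-1a-3p, then miR-133a-3p, miR-99a-5p and miR-122-5p. miR-99a-5p, of the miR-99/100 family, was at 50471, 42626 and 37144 CPM in naive wt and 47874, 58952 and 44393 CPM in Givinostat mice, with overlap (log2 0.21, 95% confidence interval -0.29 to 0.72), and was the most abundant miRNA in which no difference was called.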

How the data were processed

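Plasma small RNA was extracted with a serum and plasma kit from EDTA blood taken from the retro-orbital sinus, made into libraries, selected by size and sequenced, 1 library per mouse. The deposited counts are reads per miRNA summed over isomiRs, without molecular identifiers, against miRBase release 21. The study's methods name Trimmomatic for trimming, and the submitters' processing notes list bcl2fastq 1.37.0, cutadapt 1.4.2 and Bowtie 1.0.0. A second deposited table holds scaled log2 values by the authors, with no value for counts of 3 or fewer, and served only in alternatives.

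Counts of all 13 libraries were fitted in edgeR 4.0.16 (R 4.3.3) with TMM scaling, filterByExpr at a minimum count of 10, 1 mean per group and the quasi-likelihood test, with Benjamini-Hochberg adjustment over the 368 miRNAs. Standard errors are the log2 fold change divided by the square root of F. Shares were set against each other with exact permutation tests (two-sided). Alternatives were other scalings and filters, DESeq2 1.42.0, limma 3.58.1 on the deposited log2 values with pseudocounts of 1 and 5, fits of 2 groups, a covariate for red blood cell material (the log2 ratio of miR-451a over miR-23a-3p), and leaving out each mouse. On simulated data for Givinostat against naive wt (374 miRNAs) the test recovered 47.6% of 2-fold, 100% of 4-fold and 96% of 8-fold changes, and 4.69% of its 64 calls were false. These shares rest on 21, 27 and 25 changed miRNAs. The simulated levels were means over all 13 libraries, with rises and falls balanced. The large shift in makeup between the real groups was thus not simulated.

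Groups came from the sample titles. Named miRNAs were up to 12 called per direction with the largest change, a mean of at least 10 CPM and no overlap, all tested members of the muscle, miR-378, miR-22 and liver lists, up to 4 of the most abundant members of each other list, the 5 most abundant per group, and the 5 with the smallest p against naive mdx and against vehicle. Outside this rule miR-200c-3p, miR-429-3p, miR-144-3p, miR-144-5p, miR-486b-3p, let-7d-5p, let-7d-3p, miR-181a-2-3p, miR-92b-5p and miR-1199-5p were named after their values were seen, to complete a family, a small count or a pair of arms. For a miRNA named only for its large change the lack of overlap follows from this rule, and 198 of all 368 did not overlap. The members and the 26 lists were chosen with earlier results of these data known. Mature sequences and hairpin positions are from RefSeq on GRCm38.p6.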

Additional observations from a re-analysis of the deposited data

How the results depend on the processing

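No paired analysis was possible because the groups share no animal numbers. The number of miRNAs higher than naive wt fell from 83 to 22 with the covariate for red blood cell material, a ratio that itself differed between the groups. The number lower, 43, was 49 with upper-quartile factors, 55 with edgeR and 61 with DESeq2 on 2 groups, 33 with no filter, 18 with library totals, 0 with the covariate, 10 and 11 in limma with pseudocounts of 1 and 5, and 24 to 41 when 1 mouse was left out (24 without naive wt mouse 89, 25 without Givinostat mouse 35). The higher count was 62 to 79 in the latter fits. Calls against naive mdx, 0, became 11 with no filter, 2 with DESeq2 on all libraries and 2, with 1 in common, on 2 groups, and 0 to 3 when 1 mouse was left out, 3 without Givinostat mouse 31. Calls against vehicle, 1, became 3 with upper-quartile factors, 2 with library totals or with DESeq2 in either form, 6 with no filter, and 0 with a minimum mean of 10 CPM, with the covariate or in limma with either pseudocount. They were 0 to 6 when 1 mouse was left out, 6 without Givinostat mouse 31. Relative to TMM, library totals moved the median of all miRNAs by 0.146 on the log2 scale, limma by 0.162 and edgeR on 2 groups by 0.124.

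Under the covariate the log2 fold change changed sign for miR-126a-3p (0.374), miR-144-3p (0.093), miR-144-5p (0.306), miR-150-5p (0.226), miR-26a-5p (0.214) and miR-451a (0.362). That of miR-146b-5p was -0.010 with RLE factors, -0.091 with upper-quartile factors, -0.008 and -0.018 in DESeq2 on all libraries and on 2 groups, and -0.178 to 0.376 when 1 mouse was left out (-0.151 without naive wt mouse 86, -0.152 without naive wt mouse 89). That of miR-26a-5p was 0.065 in limma with either pseudocount, 0.004 in edgeR on 2 groups and -0.277 to 0.074 when 1 mouse was left out, 0.074 without naive wt mouse 89. The red blood cell ratio with miR-486a-5p as numerator differed by 1.375. The cause of these changes was not tested. With 3 mice per group and 1364813 to 2899315 counts per library, changes near 2-fold were often not detectable, and low miRNAs rest on few counts.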
